A study of Canis lupus familiaris with 32 samples.

Results

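The teres ligament of dogs under 1 month of age was compared with that of adult control dogs by RNA sequencing. The comparison holds 7 of the 32 libraries of the series, namely the 4 libraries titled young ligament and the 3 titled control ligament, chosen by their titles alone. Each library came from a different dog (7 dogs), so that no dog stood on both sides. Young is the label for dogs under 1 month, and their disease status is not stated in the labels. Controls were adults, and the other ligaments of the series came from dogs affected by hip dysplasia, 4 adult and 3 aged 4 months. The rest of the series is hip joint capsule and whole embryonic hip. Per the labels' protocols, RNA was extracted from the tissue with Trizol, depleted of ribosomal RNA and sequenced from libraries that keep the strand. Nothing in the labels gives breed, sex or exact age of the young and control dogs, and any of these that differs between the groups cannot be told apart from age.

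The teres ligament is a cord of dense connective tissue inside the hip joint that ties the head of the femur to its socket. Its fibroblasts lay down collagen fibres and the proteoglycans and glycoproteins between them, and in newborn mammals ligaments are still growing and carry more cells and more matrix synthesis than in the adult. In hip dysplasia the joint is lax, which is why its soft tissues are of interest in young dogs. In bulk tissue, fewer cells of a type and less RNA per cell cannot be told apart.

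Genes are known in these files by Ensembl identifier only. None of the 24580 identifiers matched a symbol in the reference table (0 matched), so lists of matrix, growth, cell cycle and marker genes and the check of the tissue against its defining markers were not analysed here. For the same reason no gene is described by function, and identifiers are given for 2 genes in each direction, those with the largest difference in mean level among called genes whose groups did not overlap.

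Library totals lay between 6018741 and 9895143 fragments in the 4 young ligaments and between 4770687 and 5492629 in the 3 controls, so the groups did not overlap in depth. Over all 32 libraries they ran from 2857235 to 9895143. Control replicate 3 stood apart from the other controls before any test. Its Pearson correlation across genes was 0.913 and 0.918 with control replicates 1 and 2, which correlated at 0.941 with each other, and it was 0.918 with young replicate 2. Within the young group the same correlation lay between 0.934 and 0.971, lowest for the pairs of young replicate 2 with replicates 4 and 3. Genes varied more among controls than among young libraries, with a median SD of log2 CPM (the share of a library's scaled total, written per 1e+06 fragments) of 0.401 against 0.296. Without control replicate 3 that of the controls was 0.245, from replicates 1 and 2 only. A median SD over fewer libraries tends to come out lower, so this value cannot be set against that of the young libraries.

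**Figure D1:**
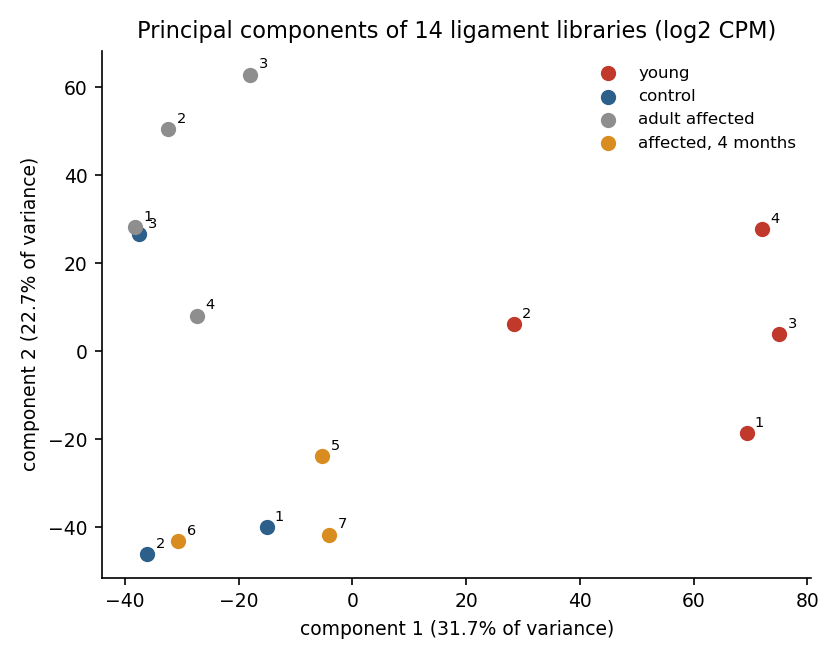
Each point is 1 of 14 ligament libraries, placed by its first and second principal component of log2 CPM over 13216 genes, with 31.7% and 22.7% of the variance on the axes, coloured by group and numbered by replicate. The young libraries lie at 28.4 to 75 on the first axis and all others at -4.11 or lower, and control replicate 3 lies at 26.5 on the second axis, beside adult affected replicate 1 at 28.2.

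Across all 14 ligament libraries the young ones were set off along the first principal component. Young replicates 1, 3 and 4 stood at 69.3, 75 and 72 and young replicate 2 at 28.4. Controls lay between -37.5 and -15.1, the adult affected ligaments between -38.3 and -18 and those at 4 months between -30.6 and -4.11. The ligaments of dogs aged 4 months therefore lay on the adult side, next to the adults. The second component did not order the libraries by age. On it control replicates 1 and 2 (-40.1 and -46.1) fell with the affected ligaments at 4 months (-43.2 to -23.9), whereas control replicate 3 (26.5) fell among the adult affected ligaments (8.03 to 62.8).

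In young ligaments 708 genes were higher and 602 lower than in adult controls. They made up 5.57% and 4.74% (together 10.3%) of the 12701 genes tested, at an adjusted p under 0.05 in edgeR's quasi-likelihood test with Benjamini-Hochberg adjustment. The median log2 fold change was 1.75 among higher and -1.54 among lower genes, against 0.00924 over all genes tested. At least 2-fold changes were found for 600 higher and 461 lower genes (4.72% and 3.63% of genes tested), and at least 4-fold changes for 294 and 195 (2.31% and 1.54%). Past 16-fold, 58 genes were higher and 24 lower (0.457% and 0.189%).

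The 7 libraries separated for most of these genes. They were called on the same libraries, so the separation follows largely from the call and is given as a description only. The 4 young libraries lay above all 3 controls for 700 of the 708 higher genes and below them for 585 of the 602 lower genes, where 12.5% and 11.5% of all genes tested were arranged in these ways. At most 10 fragments over the 3 controls together were counted for 62 of the higher genes, out of 79 tested genes with so few. At most 10 fragments over the 4 young libraries were counted for 10 of the lower genes, out of 11 tested. Genes this low in 1 group entered the test only through their counts in the other, so these shares are set largely by the filter and support nothing.

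**Figure D2:**
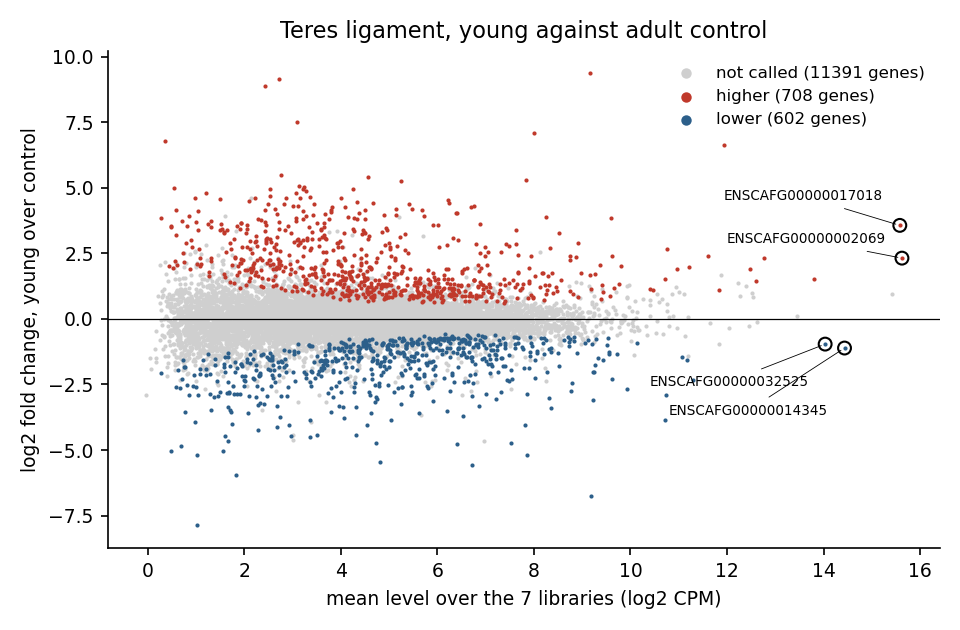
Each point is 1 of 12701 genes, with its mean level over the 7 ligament libraries (log2 CPM) on the horizontal axis and its log2 fold change, young over control, on the vertical axis, red for the 708 genes called higher, blue for the 602 called lower and grey for the rest. Called genes spread over the whole range of levels, and the 4 circled genes, with log2 fold changes of 3.57, 2.32, -0.96 and -1.11, sit at its upper end.

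Called genes were found at every level of expression. In the quartile of genes with the lowest mean CPM, 5.23% were higher and 4.09% lower, and in the quartile with the highest, 6.61% and 7.18%. Of the 100 most abundant genes by mean CPM, 18 were called higher and 10 lower, against 5.57% and 4.74% of all genes tested. That mean was taken over 4 young and 3 control libraries, so it leans to genes high in young ligaments. The share of called genes also moved with gene length, taken from the ratio of fragments to FPKM (the level divided by gene length, as deposited) and set to 1 at the median gene. Called lower genes had a median relative length of 1.36 and called higher genes 1.07, against 0.988 over all genes tested. From the shortest to the longest quartile of genes, the share called lower was 2.46%, 4.22%, 5.32% and 6.96%, whereas the share called higher was 4.91%, 5.13%, 6.55% and 5.7%. The libraries themselves differed in this respect. Spearman's rho between a gene's length and its departure from the mean over the 7 libraries was 0.0611, 0.0662 and 0.119 in control replicates 1 to 3 and -0.122, -0.0073, -0.182 and -0.0462 in young replicates 1 to 4, across genes, which are not independent. With each library's trend over length taken out, 684 genes were higher and 581 lower, 644 and 549 of them among the original calls.

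Few genes held a larger part of the RNA in young than in control ligaments. The 10 most abundant genes held 21.7%, 33%, 24.9% and 30.2% of fragments in young replicates 1 to 4 and 16.9%, 12.9% and 18% in control replicates 1 to 3. Every young library was above every control. The difference of 11.5 percentage points had an exact permutation p of 0.0571, two-sided, which is the smallest that 4 against 3 libraries allow (adjusted over 4 library measures 0.0762). The 100 most abundant genes held 44.4% ± 4.55 (SD, n = 4) in young and 32.1% ± 3.24 (n = 3) in control ligaments (exact permutation p = 0.0571, adjusted 0.0762). This was not particular to young ligaments, since adult affected replicates 2 to 4 had 28.2%, 29.1% and 26.5% in the 10 and 46.3%, 46.4% and 42.1% in the 100 most abundant genes, inside the young ranges. Genes detected at matched depth did not differ beyond their spread between young and control ligaments, 15380 ± 135 (n = 4) against 15705 ± 359 (n = 3) after thinning to 4770687 fragments, with overlapping groups (exact permutation p = 0.171, adjusted 0.171). Without thinning the difference was 11.8 genes in the other direction. Total fragments differed in the same way as the first 2 measures (exact permutation p = 0.0571, adjusted 0.0762).

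The called genes carried opposite shares of the RNA in the groups. Genes called higher held 25%, 29.9%, 25.9% and 29% of all fragments in young replicates 1 to 4 and 8.72%, 5.33% and 7.41% in control replicates 1 to 3. Genes called lower held 5.02% to 5.81% in young ligaments and 14.9% to 19.7% in controls. These shares describe genes chosen on the same libraries and have no test. The 2 named higher genes alone held 11.1%, 19%, 12% and 15.2% of all fragments in young replicates 1 to 4 and 1.19% to 3.5% in controls. Without the named genes, the higher genes held 10.9% to 13.9% in young and 4.14% to 5.21% in control ligaments.

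Among called genes without overlap between the groups, ENSCAFG00000017018 had the largest rise in mean CPM. It stood at 40127, 119972, 53527 and 108104 CPM in young replicates 1 to 4 and at 8531, 1524 and 10225 CPM in control replicates 1 to 3. All young libraries were well above the controls, but each group was wide, and control replicate 2 was far under the other 2 controls. The means were 80432 ± 39487 CPM (SD, n = 4) and 6760 ± 4613 CPM (n = 3), an 11.9-fold difference (log2 3.57, SE 0.715, edgeR adjusted p = 0.014). By FPKM it ranked 4, 1, 3 and 2 among all genes in the young libraries and 14, 166 and 19 in the controls.

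ENSCAFG00000002069 rose by less and varied less. It was at 68367, 93104, 70893 and 74285 CPM in young replicates 1 to 4, and at 23875, 8566 and 13633 CPM in control replicates 1 to 3. The young libraries formed a narrow group with replicate 2 above the rest, and none came near a control. The means of 76662 ± 11226 CPM (SD, n = 4) and 15358 ± 7799 CPM (n = 3) differed 4.99-fold (log2 2.32, SE 0.403, edgeR adjusted p = 0.0079). By FPKM this gene ranked 2, 2, 2 and 3 in the young libraries and 5, 18 and 15 in the controls.

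ENSCAFG00000014345 had the largest fall in mean CPM among called genes without overlap between the groups. Its fold change was not among the largest, since the median log2 fold change of called lower genes was -1.54. Control replicates 1 to 3 held 27976, 38243 and 29413 CPM, and young replicates 1 to 4 held 12760, 15106, 14684 and 16485 CPM. The highest young library was well under the lowest control. From 31877 ± 5560 CPM (SD, n = 3) in controls to 14759 ± 1539 CPM (n = 4) in young ligaments, the log2 fold change was -1.11 (SE 0.252, edgeR adjusted p = 0.023). It remained abundant in young ligaments, at FPKM ranks 20, 15, 21 and 23, against 7, 4 and 7 in controls.

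ENSCAFG00000032525 fell by about the same factor. Its controls were at 21121, 23275 and 25005 CPM and its young libraries at 10803, 13163, 10937 and 12813 CPM. Both groups were tight and did not overlap. Means of 23134 ± 1946 CPM (SD, n = 3) and 11929 ± 1233 CPM (n = 4) gave a log2 fold change of -0.96 (SE 0.234, edgeR adjusted p = 0.031). It is the longest of the 4 genes by the measure above, at a relative length of 8.51 (2.13, 2.62 and 3.62 for the others in the order given), and with the trend over length taken out its log2 change was -0.59 and did not pass (edgeR adjusted p = 0.15). The falls of both genes also lost their call in some fits with 1 library left out. That of ENSCAFG00000032525 was lost without control replicate 2 or 3 or young replicate 1, 3 or 4 (edgeR adjusted p = 0.051 to 0.12), and that of ENSCAFG00000014345 without control replicate 2 or young replicate 1, 3 or 4 (0.052 to 0.09), at log2 changes of -0.89 or lower. Over all alternatives their adjusted p ran from 3.4e-07 to 0.15 and from 2.6e-07 to 0.096.

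**Figure D3:**
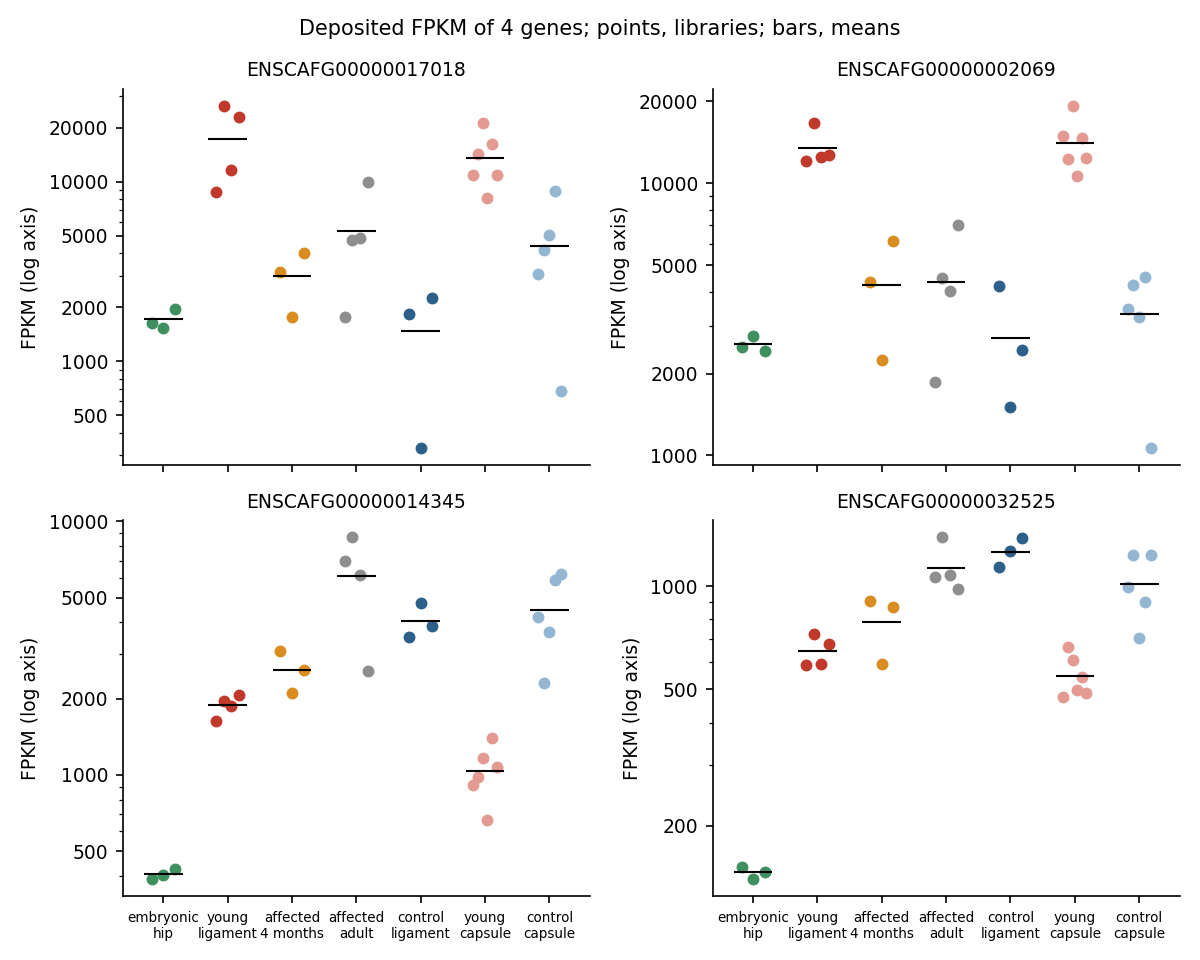
Deposited FPKM of the 4 named genes on a log axis, with 1 point per library and a bar at the mean, for embryonic hip, the 4 classes of ligament and young and control capsule. Both genes of the upper row have their highest ligament mean in the young libraries, at 17392 and 13493 FPKM, and both genes of the lower row are lowest in embryonic hip, at 406 and 146 FPKM.

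The levels of these genes in the other groups are given in FPKM, which is per length and on 1 scale for all libraries. ENSCAFG00000017018 averaged 17392 ± 8534 FPKM (SD, n = 4) in young ligaments and 1476 ± 1015 (n = 3) in control ligaments. The means of affected ligaments lay between these, at 2977 ± 1133 (n = 3) at 4 months and 5333 ± 3404 (n = 4) in adults, with libraries that overlapped with each other and with the controls. Adult affected replicate 4, at 9962 FPKM, was above young replicate 1, at 8754. Embryonic hip held 1715 ± 221 FPKM (n = 3), within the range of the controls, but it is whole hip, so that tissue and age differ together. Among ligaments ENSCAFG00000002069 was also highest in the young, with 13493 ± 2104 FPKM against 2711 ± 1354 in controls and 2557 ± 176 in embryonic hip. Affected ligaments of both ages averaged 4233 ± 1940 at 4 months and 4353 ± 2127 in adults, with the highest library, at 7044, under every young one.

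The genes that fell followed another course. ENSCAFG00000014345 was lowest in embryonic hip (406 ± 17.4 FPKM, n = 3), higher in young ligaments (1881 ± 183, n = 4), and higher again in affected ligaments at 4 months (2597 ± 495, n = 3) and in controls (4032 ± 649, n = 3). The 4-month libraries, from 2105 to 3094, lay between the highest young library at 2072 and the lowest control at 3485. Adult affected ligaments had the highest mean of these groups, 6077 ± 2569 FPKM (n = 4). Their replicates 1 to 4 were at 6948, 8667, 6129 and 2565 FPKM, against 4749 in the highest control. ENSCAFG00000032525 rose in the same order of groups, from 146 ± 6.15 in embryonic hip over 646 ± 65.9 in young and 787 ± 171 in 4-month ligaments to 1261 ± 122 in controls, with adult affected ligaments at 1128 ± 179 and young and 4-month libraries overlapping.

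The 4 adult affected ligaments gave another adult group to set beside the same young libraries. In that comparison 1684 genes were higher and 1398 lower in young ligaments, 13.4% and 11.1% of 12541 genes tested with edgeR. It shares the young libraries with the main comparison and is not independent of it. ENSCAFG00000017018 was 3.35-fold higher in young than in adult affected ligaments (log2 1.74, SE 0.519, edgeR adjusted p = 0.033) and ENSCAFG00000002069 was 3.18-fold higher (log2 1.67, SE 0.367, adjusted p = 0.0083). The log2 changes of ENSCAFG00000014345 and ENSCAFG00000032525 were -1.63 (SE 0.331, adjusted p = 0.0057) and -0.76 (SE 0.215, adjusted p = 0.025). All 4 genes were called in the same direction as against controls. With both adult groups joined into 1, a choice made after seeing the data, 930 genes were higher and 1047 lower, 543 and 503 of them among the original calls.

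Age within affected ligaments, 4 months against adult, is a comparison that shares no library and no dog with the young and control ligaments. In the labels the identifier of young replicate 2 begins like those of the 3 dogs aged 4 months, and what this stands for is not given. No adult affected dog has an identifier that begins so. Whatever the shared beginning stands for therefore cannot be told apart from age within affected ligaments. Among the 12619 genes tested, 6.24% were called higher and 8.35% lower at 4 months. All genes called in young ligaments were followed there, whether or not they passed the filter of that comparison. Among the 708 higher genes, 442 (62.4%) showed a positive log2 difference at 4 months, with a median of 0.27, against 52.1% and 0.0315 over all 12701 genes. Called higher were 69 and called lower 22, and 77 were under the filter. Of the 602 lower genes, 324 (53.8%) had a negative difference, against 47.9% of all genes, with a median of -0.0618. Called lower were 57 and called higher 33.

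Classes of fold change were formed after the scatter of these genes had been seen, and they describe it without a test. Of the 294 genes at least 4-fold higher, 217 (73.8%) were positive at 4 months with a median log2 difference of 0.633, and of the 58 genes at least 16-fold higher, 51 (87.9%) were positive with a median of 1.29. Of those 58, 17 (29.3%) were called higher at 4 months by edgeR, and 21 were under the filter. Over all 12701 genes, 52.1% were positive, 6.09% were called higher and 413 genes were under the filter. The classes were not matched to all genes for level, and for genes with few fragments a small count makes a large log2 difference. How far this sets the shares and medians of the classes was not tested. On the lower side the 195 genes at least 4-fold lower had a median of -0.184, with 113 (57.9%) negative, and the 24 genes at least 16-fold lower had a median of -0.89, with 17 (70.8%) negative. Made without young replicate 2, also a choice after seeing the data, the lists had medians of 0.636 for 313 genes at least 4-fold higher and 0.0129 for 300 genes at least 4-fold lower. The median of all 699 lower genes then turned positive, at 0.0094, and that of 46 genes at least 16-fold lower was -0.187. The median of the strongly higher genes lay between 0.491 and 0.776 with any 1 affected library left out. The small negative median of all lower genes lay between -0.159 and -0.0115. Whether the higher and the lower genes differ in this respect was not tested.

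**Figure D4:**
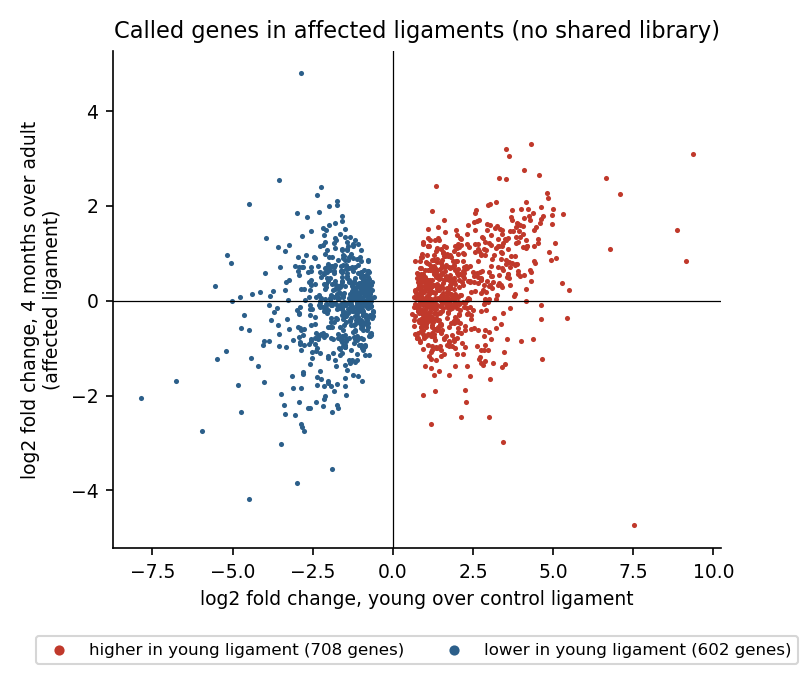
Each point is a gene called in young against control ligament, 708 higher in red and 602 lower in blue, with its log2 fold change there on the horizontal axis and its log2 fold change between affected ligaments at 4 months and in adults on the vertical axis. Red points at the far right lie mostly above 0, with 51 of 58 genes past 16-fold, and of the fewer blue points at the far left 17 of 24 past 16-fold lie below 0.

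Of the named genes, none was called between 4 months and adult. ENSCAFG00000017018 had a log2 difference of -0.8 (SE 0.551, edgeR adjusted p = 0.34) and ENSCAFG00000002069 of 0.01 (SE 0.503, adjusted p = 0.99). Thus neither of the abundant genes that rose in young ligaments stood higher at 4 months than in affected adults beyond the spread of the libraries. ENSCAFG00000014345 was at -1.11 (SE 0.46, adjusted p = 0.12) and ENSCAFG00000032525 at -0.48 (SE 0.343, adjusted p = 0.36).

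Embryonic hip was set beside the called genes as a description, because it is whole hip and no ligament. By mean FPKM it was above both young and control ligament for 409 of the 708 higher genes (57.8%), between them for 203 and below both for 96, where 39.5% of all genes tested were above both. For the 602 lower genes it was below both for 367 (61%), between for 196 and above both for 39, against 42.1% of all genes below both. Together the higher genes held 13.1% to 13.4% of fragments in the 3 embryonic libraries. Without the named genes they held 10.1% to 10.5% there, against 10.9% to 13.9% in young ligaments. The lower genes held 3.67% to 3.95% of fragments in embryonic hip, less than in any young ligament. With the named genes left out, they held 2.92% to 3.15% there and 2.58% to 3.39% in young ligaments, ranges that overlapped.

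The age effect was compared between ligament and joint capsule with an interaction term over the young and control libraries of both. None of the named genes passed. In capsule alone, 18.8% of 12589 genes were called higher and 19.6% lower in young dogs (together 38.4%), all 4 named genes among them in the same directions as in ligament. For ENSCAFG00000017018 the effect was larger in ligament by log2 1.92 (SE 0.841, edgeR adjusted p = 0.3), with capsule means of 13616 ± 4644 FPKM (SD, n = 6) in young and 4383 ± 3023 (n = 5) in control dogs. For ENSCAFG00000002069 the difference was 0.22 (SE 0.506, adjusted p = 0.86), for ENSCAFG00000014345 0.96 (SE 0.38, adjusted p = 0.27) and for ENSCAFG00000032525 -0.08 (SE 0.287, adjusted p = 0.91). Over all genes, 5 of 13548 (0.0369%) were called by edgeR, and 2058 had an unadjusted p under 0.05. For each of the 5 the log2 change, young over control, was more positive in ligament than in capsule. In ligament alone, 3 of the 5 were called higher in young dogs and 2 were not called. Of the young dogs 3, and of the control dogs 1, gave both tissues. With the dog as a random block in limma, 152 genes were called.

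These calls depended on single libraries: 10 of 18 fits with 1 library left out called 0 genes, and without ligament control replicate 3 there were 715. The 2 genes with the largest interaction, chosen after their values were seen, went in opposite directions in the tissues. Both rested on few fragments, 15 to 185 per ligament library for the first and 23 to 150 for the second. ENSCAFG00000015412 was at 8.13, 10.4, 10 and 8.16 FPKM in young ligaments 1 to 4 and at 2.72, 1.13 and 2.44 in control ligaments. Young capsules ran from 2.21 to 9.92 FPKM and control capsules from 6.35 to 17.9. It was thus higher in young ligament (log2 2.15, SE 0.327, edgeR adjusted p = 0.0045) and lower in young capsule (log2 -1.2, SE 0.345, adjusted p = 0.014), with an interaction of 3.34 (SE 0.548, adjusted p = 0.035). ENSCAFG00000005688 was at 16.8, 27.6, 28.3 and 41 FPKM in young ligaments and 7.69, 5.65 and 10.6 in controls, against 8.54 to 18.9 in young and 11 to 31.4 in control capsules. Its changes were log2 1.85 in ligament (SE 0.367, edgeR adjusted p = 0.013) and -0.84 in capsule (SE 0.277, adjusted p = 0.026) (interaction 2.67, SE 0.472, adjusted p = 0.048). In adult affected ligaments this gene stood at 15.7 to 30.8 FPKM, overlapping with the young ligaments, and its difference between them was log2 0.43 (SE 0.297, adjusted p = 0.31). For ENSCAFG00000015412 adult affected ligaments, at 3.28 to 5.66 FPKM, lay between controls and young ligaments.

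The count of called genes depended on which libraries entered. Without control replicate 3, the library that stood apart, 1004 genes were higher and 770 lower, 612 and 496 of them among the original calls. Leaving out control replicate 2 gave 422 and 368, young replicate 1 466 and 317, young replicate 3 391 and 226, and young replicate 4 492 and 356. Without control replicate 1 there were 541 and 418, and without young replicate 2 689 and 699. In every one of the 7 fits with 1 library left out, 343 higher and 203 lower genes were called. No gene called in 1 direction was called in the other under any alternative tried (0 genes).

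**Figure D5:**
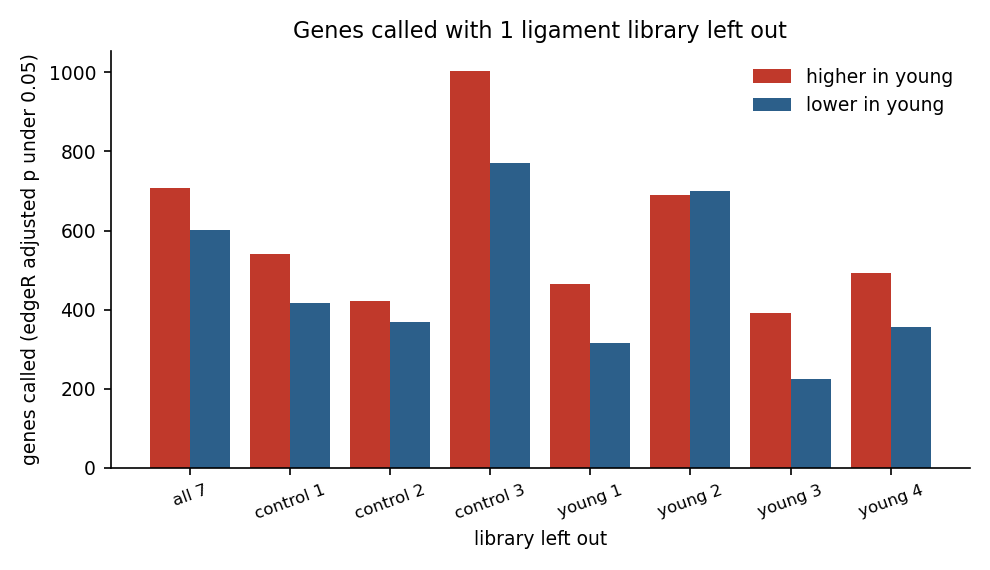
Bars show the number of genes called higher (red) and lower (blue) in young than in control ligaments by edgeR at an adjusted p under 0.05, with all 7 libraries and with each library left out. Counts are highest without control replicate 3, at 1004 and 770, and lowest without young replicate 3, at 391 and 226.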

How the data were processed

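Tools named per the submitters' processing notes are TopHat2 2.0.13, Bowtie2 2.2, Cuffdiff 2.2.1 and cutadapt 1.8, and the build is canFam3. Roles, annotation and strand setting: not given in the sources used here. Per the file headers, the authors deposited an estimated count of fragments per gene and library before scaling, and FPKM on scaled counts. Of the counts, 0.332% were not whole (tolerance 1e-06), and all were rounded. The status FAIL was carried by 9 values in 3 genes, which were kept. The separate capsule and ligament tables hold no young library and were not used.

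Groups were tested with edgeR 4.0.16 in R 4.3.3 (filterByExpr, TMM, robust quasi-likelihood F test, Benjamini-Hochberg, called at an adjusted p under 0.05). Standard errors come from the F statistic and CPM use TMM-scaled totals. DESeq2 1.42.0 and limma 3.58.1 (log2 FPKM with a pseudocount of 1, voom) served as alternatives. Single values were compared with exact permutation tests over libraries. Relative length is fragments divided by FPKM, over libraries with at least 10 fragments. The fits were tested on simulated data with known changes. The fit of young against control ligament recovered 96 of 100 changes of 4-fold and 28 of 100 of 2-fold, with 5 false calls. The interaction fit recovered 89 of 100 and 13 of 100, with 4 false calls. These simulations held 10886 and 11045 genes, filtered with all libraries as 1 group. Their libraries were drawn independently, without an outlying library, a trend over length or shared dogs. The false calls are therefore not error rates of the fits to the real libraries. Replicates are different dogs. No pair within a group agreed within sampling noise (lowest chi-square per gene 14.6). Shares of fragments have 95% Wilson intervals at most 0.0841 percentage points wide, which cover counting error only, without molecular identifiers.

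The comparison, its lists and the rule for named genes (among called genes without overlap between the groups, the 2 in each direction with the largest difference in mean CPM) were chosen with earlier results of these data known. Gene lists by symbol could not be matched and were not analysed here. Genes with near-identical copies or overlaps could not be recognised, and how their fragments were assigned is uncertain for every identifier named.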

Additional observations from a re-analysis of the deposited data

Results flagged for a closer look

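Single libraries were checked in 23 groups of values, from young and adult affected ligaments and from young and control capsules. Chance alone marks about 1 group in 20. In the 2 groups marked, young replicate 2 stood apart from the other 3 young ligaments. Of the 23 checks, only those on young ligaments could mark young replicate 2. Its total of 9895143 fragments was far above the next, 6538359. For ENSCAFG00000002069 it had 16624 FPKM, against 12751 in the next highest young ligament. With the 7 libraries thinned to the smallest, 680 genes were higher and 584 lower, 656 and 549 of them among the original calls, and the log2 fold change of ENSCAFG00000002069 without young replicate 2 remained past the threshold. The age effect differed between ligament and capsule for 5 genes by the interaction term.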

How the results depend on the processing

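Both counts of genes called in young ligaments stayed within 1.5 times under RLE and upper quartile scaling, either filter on low counts, limma on FPKM, a single fit of all 14 ligaments, the 2-fold threshold, thinning, removal of the length trend, and leaving out control replicate 3 with young replicate 2 (975 and 834). The last 3 of these, and the addition of adult affected ligaments, were chosen after seeing the data. More genes were called in both directions by DESeq2 (1024 higher and 1016 lower) and by voom with library quality weights (1048 and 1019). The same held for adult affected ligaments added to the controls (930 and 1047). In these settings only the lower counts went past 1.5 times. Leaving out 1 library gave 391 to 1004 higher and 226 to 770 lower genes; without young replicate 3, higher genes were 63.4% of calls, and with all 7, 708 of 1310. A replicate block by label number drops young replicate 4. In it 467 higher and 347 lower genes were called, and of the named genes only ENSCAFG00000002069 stayed called (adjusted p of the others in edgeR 0.084 to 0.14). The number pairs different dogs, and same-numbered libraries deviated together at r = 0.236, 0.0617 and -0.19. ENSCAFG00000002069 kept its call in 20 of 20 settings (log2 1.9 to 2.79) and ENSCAFG00000017018 in all but the block (2.25 to 4.04).

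The interaction with capsule gave 106 genes with DESeq2, 152 with the dog as a block, and 0 to 715 with 1 library left out. The count was 715 without ligament control replicate 3, and 2 without ligament control replicate 1 or capsule control replicate 5. It was 0 without ligament control replicate 2, ligament young replicates 2, 3 or 4, capsule young replicates 1, 5 or 6 or capsule control replicates 1, 3 or 4. Between affected ligaments, leaving out 1 library gave 162 to 954 higher genes (479, 294, 288, 438, 162 and 355 without replicates 1, 2, 3, 5, 6 and 7) and 387 to 1249 lower ones (509, 538, 387 and 490 without replicates 2, 3, 6 and 7). The median difference of genes higher in young ligament was 0.157 without replicate 7, and that of lower genes -0.0115, -0.12 and -0.159 without replicates 1, 3 and 6. Against adult affected ligaments, 917 to 1845 higher and 786 to 1703 lower genes were called (1045 and 809 without young replicate 1, 917 and 786 without young replicate 3, 921 lower without affected replicate 2). The difference in genes detected was -429 to -118 with 1 library left out and 11.8 without thinning. Shares of the 10 and 100 most abundant genes differed by 9.69 to 13.4 and 10.6 to 14.2 percentage points, and totals by 1221639 to 2513773 fragments. The cause of these changes was not tested.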

Other observations

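The genes called in ligament were also looked up in the joint capsule, where they were not chosen, although 3 young dogs and 1 control dog gave both tissues. The 708 higher genes held 19% to 30.1% of fragments in the 6 young capsules and 4.75% to 12.6% in the 5 control capsules, and these ranges did not overlap. The 602 lower genes held 4.59% to 5.18% in young and 12.8% to 15.8% in control capsules. With the named genes left out, the higher genes held 7.91% to 13.4% in young and 3.84% to 6.15% in control capsules. The lower genes then held 2.87% to 3.48% and 7.83% to 9.49%. In affected ligaments the higher genes held 8.1% to 12.9% at 4 months and 7.53% to 14.8% in adults, ranges that overlapped. Without the named genes these shares were 5.42% to 6.96% and 5.6% to 7.37%.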
